A study of Mus musculus with 6 samples.

Results

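Tetraspanins are a family of small membrane proteins, and their genes were followed here in tumour-associated macrophages, the macrophages found inside a tumour. Members were the probe sets that carried exactly 1 gene symbol and whose symbol was Tspan followed by a number, or Cd9, Cd37, Cd53, Cd63, Cd81, Cd82, Cd151, Upk1a or Upk1b. This gave 28 genes, each with 1 probe set, of 19938 genes in all. All 28 matched a current RefSeq gene record by Entrez identifier under the same symbol, and 0 probe sets with several symbols held a member. The cells were sorted by flow cytometry from hepa1-6 tumours, grown from a mouse hepatoma cell line placed in the liver of C57BL/6 mice, and their RNA was measured on Affymetrix Mouse Gene 1.0 ST arrays. A vehicle group and a PLX3397 group had 3 arrays each, PLX3397 being a small molecule that blocks CSF1R, the receptor macrophages need for growth and survival, as well as KIT and FLT3. Dose, duration of treatment, sex and age were not stated in the labels, and neither was whether each replicate came from 1 animal or several. The titles call the replicates biological, and a p-value here speaks of the spread among these 6 samples. The description field gives the vehicle samples a further name with LPS and interferon-gamma and the treated samples one with IL4, which goes against titles, sources and treatment labels and was not used. The design sets macrophages of PLX3397-exposed tumours against those of control tumours.

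A tetraspanin crosses the membrane several times and exposes a small and a large extracellular loop, the large one carrying conserved cysteines. Tetraspanins bind each other and chosen partners, among them integrins, immunoglobulin-family receptors and membrane proteases, and so gather them into membrane domains. In macrophages they are known for restraining cell fusion (CD9 and CD81), for loading late endosomes and extracellular vesicles (CD63), for organising pattern receptors (CD37) and, in the group called TspanC8, for carrying the protease ADAM10 out of the endoplasmic reticulum.

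To show where these transcripts start, 5 promoters are printed below, chosen because they belong to the 4 members with the largest rises and to the 1 that fell. They are the 250 bases before the annotated start of each gene, from RefSeq on GRCm38.p6, 5′ to 3′ on the strand of the gene. Capitals mark any of 8 motifs searched on both strands: the GC box GGGCGG, the CCAAT box CCAAT, the TATA box TATAAA, the E-box CACGTG, the AP-1 motif TGANTCA, a STAT5-type motif TTCNNNGAA, a STAT6-type motif (TTC and GAA with 4 bases between them) and a PU.1-type motif GAGGAAG. The windows are chr3:138741958-138742207 (plus strand) for Tspan5, chr7:143052500-143052749 (plus) for Cd81, chr6:125494761-125495010 (minus) for Cd9, chr12:36042479-36042728 (minus) for Tspan13 and chr9:56161071-56161320 (minus) for Tspan3.
Tspan5: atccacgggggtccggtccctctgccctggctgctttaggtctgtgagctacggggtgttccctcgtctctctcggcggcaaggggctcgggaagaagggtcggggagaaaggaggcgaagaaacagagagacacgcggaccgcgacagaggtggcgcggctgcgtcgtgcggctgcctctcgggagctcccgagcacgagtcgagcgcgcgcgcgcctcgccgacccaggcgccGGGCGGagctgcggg
Cd81: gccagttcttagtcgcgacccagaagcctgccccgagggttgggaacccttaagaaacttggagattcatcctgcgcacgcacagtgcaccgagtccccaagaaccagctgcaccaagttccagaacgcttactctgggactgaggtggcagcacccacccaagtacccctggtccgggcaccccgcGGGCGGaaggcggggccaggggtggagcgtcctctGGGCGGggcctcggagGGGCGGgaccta
Cd9: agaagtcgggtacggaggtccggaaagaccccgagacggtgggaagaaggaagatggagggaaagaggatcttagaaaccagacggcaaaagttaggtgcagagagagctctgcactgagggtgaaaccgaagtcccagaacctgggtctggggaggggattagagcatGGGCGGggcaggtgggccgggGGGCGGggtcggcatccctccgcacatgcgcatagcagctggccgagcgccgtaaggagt
Tspan13: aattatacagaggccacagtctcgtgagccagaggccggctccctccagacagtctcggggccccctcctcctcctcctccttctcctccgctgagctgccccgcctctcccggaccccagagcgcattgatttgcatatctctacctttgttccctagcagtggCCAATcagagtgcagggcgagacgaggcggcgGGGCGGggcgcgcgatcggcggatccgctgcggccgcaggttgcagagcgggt
Tspan3: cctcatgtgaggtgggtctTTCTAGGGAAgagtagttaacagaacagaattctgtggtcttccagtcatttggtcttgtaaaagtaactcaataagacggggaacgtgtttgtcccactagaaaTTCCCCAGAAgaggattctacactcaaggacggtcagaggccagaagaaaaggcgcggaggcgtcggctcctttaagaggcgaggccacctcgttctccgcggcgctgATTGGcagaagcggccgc
The Tspan5 window held 33 CpG dinucleotides in 70.8% G and C, the Tspan13 window 21 in 66.0%, the Cd81 window 16 in 65.6%, the Cd9 window 16 in 61.6% and the Tspan3 window 14 in 52.4%. GC boxes numbered 3 before Cd81, 2 before Cd9, 1 each before Tspan5 and Tspan13 and 0 before Tspan3. The Tspan13 and Tspan3 windows each held 1 CCAAT box, and the Tspan3 window held 2 STAT6-type motifs.

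Over the family, 26 members had a promoter window and some had several, 36 windows in all. Their median G and C content was 57.4% with 8 CpG, against 52.4% and 6 CpG over 32851 windows of the same length from all genes. A GC box was in 41.7% of tetraspanin windows and 32.7% of all windows, and a CCAAT box in 30.6% and 33.8%. The PU.1-type motif was in 25% of tetraspanin windows, those of Cd37, Cd63, Cd82, Tspan6, Tspan9, Tspan14, Tspan31 and Tspan32, and in 10.6% of all windows. STAT6-type motifs were in 5.6% of tetraspanin windows (Cd53 and Tspan3) and 5.9% of all, STAT5-type in 2.8% and 7.0%, AP-1 motifs in 2.8% and 6.7%, E-boxes in 5.6% and 6.0% and TATA boxes in 2.8% and 12.4%. Windows of 1 gene are not independent, and a match describes letters, not binding.

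In macrophages from PLX3397-treated mice the transcripts of Tspan5, Cd81 and Cd9 were 4.78-fold, 3.81-fold and 3.18-fold as high as in the vehicle group. Of the 28 tetraspanins 14 rose, 1 fell and 13 did not pass the threshold (limma, Benjamini-Hochberg adjusted p below 0.05 over all genes). Over all 19938 genes 19.6% were higher and 18.3% lower by the same test, 37.8% in either direction. The median change of the 28 members was 0.27 on the log2 scale, that of all genes 0.04. The groups did not overlap, with every PLX3397 array above every vehicle array, in 17 members, against 27.4% of all genes, and with every array below in 1 member, against 21.9%. Rises of at least 1 log2 were those of the 3 leading genes, in a table where 3.21% of genes rose and 4.04% fell by as much. With arrays centred on their medians, the median change over all genes went from 0.04 to -0.09, and rises made up 30.6% rather than 51.7% of calls. With that centring 9 members rose and 2 fell, against 11.4% and 25.9% of all genes. The 9 were Tspan5, Cd81, Cd9, Tspan13, Cd82, Cd151, Cd37, Tspan31 and Upk1a, and these 9 kept their call under all 15 alternative settings and left-out arrays.

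**Figure D1:**
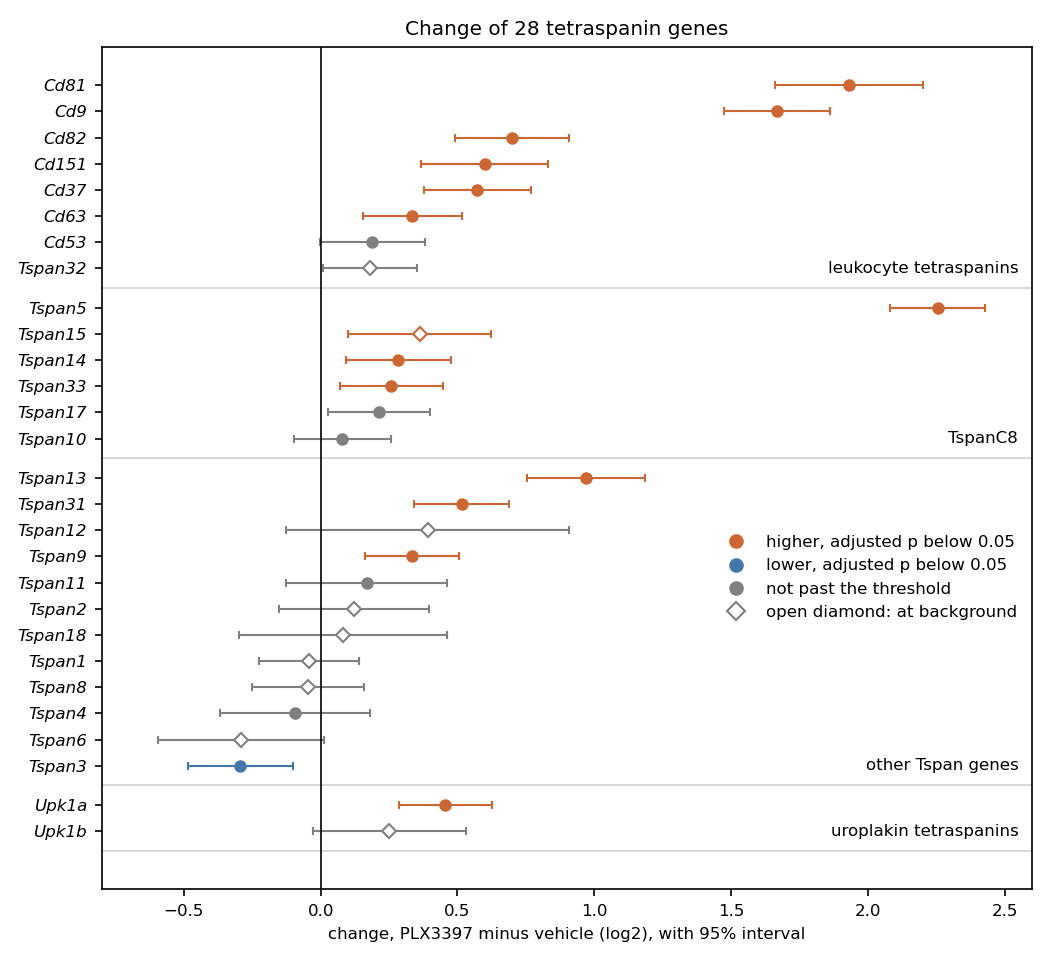
Change of each tetraspanin gene, PLX3397 minus vehicle, in log2 units, with the 95% interval of the limma fit (n = 3 per group). Tspan5, Cd81 and Cd9 lie above 1 log2 and only Tspan3 passed the threshold as lower, and open diamonds mark the 9 genes that were not above background on all 3 arrays of either group.

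Levels are log2 intensities, and changes are PLX3397 minus vehicle with the standard error (SE) of the fit. Background was set per array at the 95th percentile of 1194 odorant and pheromone receptor genes, 3.52 to 3.58. A total of 19 members exceeded it on all 3 arrays of at least 1 group and 9 did not. With the test limited to genes that did so, 13 of the 19 members rose and 1 fell, against 28.4% and 26.6% of such genes. In RNA from a sorted population, fewer cells of a type and less RNA per cell cannot be told apart. PLX3397 replicate 3 correlated with the other treated arrays at 0.992 and 0.9916 across genes, and these with each other at 0.9963. Without it 12 members rose and 2 fell.

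Some markers of several other cell types were also higher with PLX3397, where over all genes 19.6% were higher and 18.3% lower. All 9 measured macrophage markers were above background on all 6 arrays, 2 rising and 4 falling, and Csf1r changed by 0.09 (limma adjusted p = 0.441). Endothelial markers, whose cells carry Cd9, Cd81 and Cd151 too, rose in 5 of 11 cases (Kdr, Pecam1, Cdh5, Vwf and Cldn5) and fell in 0. The other 6 did not pass. Their summed linear intensity over the list was 231.4 to 249.3 in vehicle and 504 to 528 with PLX3397, with Kdr the brightest marker in both groups. Tek was below background on all 6 arrays. The 4 measured platelet and megakaryocyte markers rose, with sums of 2116 to 2219 and 3287 to 4395, most of it from Pf4 and Ppbp. B cell markers rose in 3 of 6 cases (Cd79b, Ms4a1 and Cd79a), with sums of 75.4 to 78.2 and 91.2 to 96.4. Of these rises only Cd79b was above background, as Ms4a1, Cd79a and Fcrla were below it on all arrays. Mast cell and basophil markers rose in 3 of 8 cases (Kit, Hdc and Gata2), with sums of 78.5 to 91.7 and 353 to 513, while Cpa3, Mcpt8, Ms4a2, Fcer1a and Tpsab1 were below background on all arrays. Neutrophil markers rose in 4 of 12 cases (S100a8, Mmp9, Ly6g and Ltf) and fell in 1 (Csf3r). Their sums were 3476 to 3598 in vehicle and 4186 to 5920 with PLX3397, most of each from Mmp9. The risen Ly6g and Ltf, like Retnlg, Ngp, Elane and Cxcr2, were below background on all arrays. Dendritic cell markers rose in 3 of 8 cases (Ccr7, Zbtb46 and Itgae), with sums of 94.6 to 102 and 212 to 388. Most of the sum with PLX3397 came from Ccr7. The risen Itgae, like Xcr1, Clec9a and Siglech, was below background on all arrays. T and NK cell markers rose in 1 of 10 cases (10%) and epithelial markers in 1 of 5 (Cdh1, 20%, near the share of all genes). Hepatocyte markers rose in 0 of 9 cases, and fibroblast markers rose in 0 of 7 and fell in 2. The part of any of these cells in the tetraspanin changes was not tested.

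The 8 tetraspanins grouped here as those of blood cells rose in 6 cases (75%) and fell in 0, with a median change of 0.59. Over all genes 19.6% were higher and 18.3% lower. With the test limited to genes above background in at least 1 group, as 7 of these 8 were, the shares were 28.4% and 26.6%. The part of endothelial cells, which carry Cd9, Cd81 and Cd151 too, in the changes of this group was not tested. Cd81, which encodes a tetraspanin that many cell types carry, measured 7.62, 7.68 and 8.03 in vehicle replicates 1 to 3 and 9.54, 9.79 and 9.79 with PLX3397. The lowest treated array was above the highest control, and the change was 1.93 (SE 0.12, limma adjusted p = 1.09e-06). Cd9, known from sperm-egg fusion and from platelets, measured 8.88, 9.01 and 8.88 in vehicle and 10.49, 10.58 and 10.70 with PLX3397. The arrays of each group lay within a narrow range of each other, and the change was 1.67 (SE 0.09, limma adjusted p = 3.15e-07).

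Smaller rises were those of Cd82, Cd151, Cd37 and Cd63. Cd82, described as a suppressor of metastasis, was at 9.18, 9.22 and 9.22 in vehicle and at 9.73, 10.02 and 9.97 with PLX3397, a change of 0.70 (SE 0.09, limma adjusted p = 1.79e-04). Cd151, whose product binds laminin-binding integrins, was at 7.82, 7.73 and 7.99 in vehicle and at 8.27, 8.57 and 8.50 with PLX3397 (change 0.60, SE 0.10, limma adjusted p = 0.0011). In both genes PLX3397 replicate 1 was the lowest of its group and still above every vehicle array. Cd37, a leukocyte tetraspanin that binds the fungal pattern receptor Dectin-1, was at 9.69, 9.69 and 9.73 in vehicle and at 10.18, 10.42 and 10.22 with PLX3397 (change 0.57, SE 0.09, limma adjusted p = 4.64e-04). Cd63, the tetraspanin of late endosomes and exosomes, was at 8.56, 8.63 and 8.75 in vehicle and at 8.97, 8.98 and 9.0 with PLX3397. Its groups did not overlap, and its change was 0.34 (SE 0.08, limma adjusted p = 0.0079). With centred arrays the change was 0.20 and did not pass (limma adjusted p = 0.088).

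Cd53 and Tspan32 did not pass. Cd53, carried by nearly all leukocytes, was at 11.49, 11.57 and 11.58 in vehicle and at 11.69, 11.86 and 11.65 with PLX3397. Every treated array was the higher, yet the change of 0.19 had a 95% interval from -0.0035 to 0.38 (limma adjusted p = 0.117), and it passed under a variance trend (limma adjusted p = 0.040). Tspan32, a blood cell tetraspanin of platelets and T cells, lay below background on all 6 arrays, at 2.69, 2.68 and 2.67 in vehicle and 2.88, 2.80 and 2.91 with PLX3397 (limma adjusted p = 0.092).

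**Figure D2:**
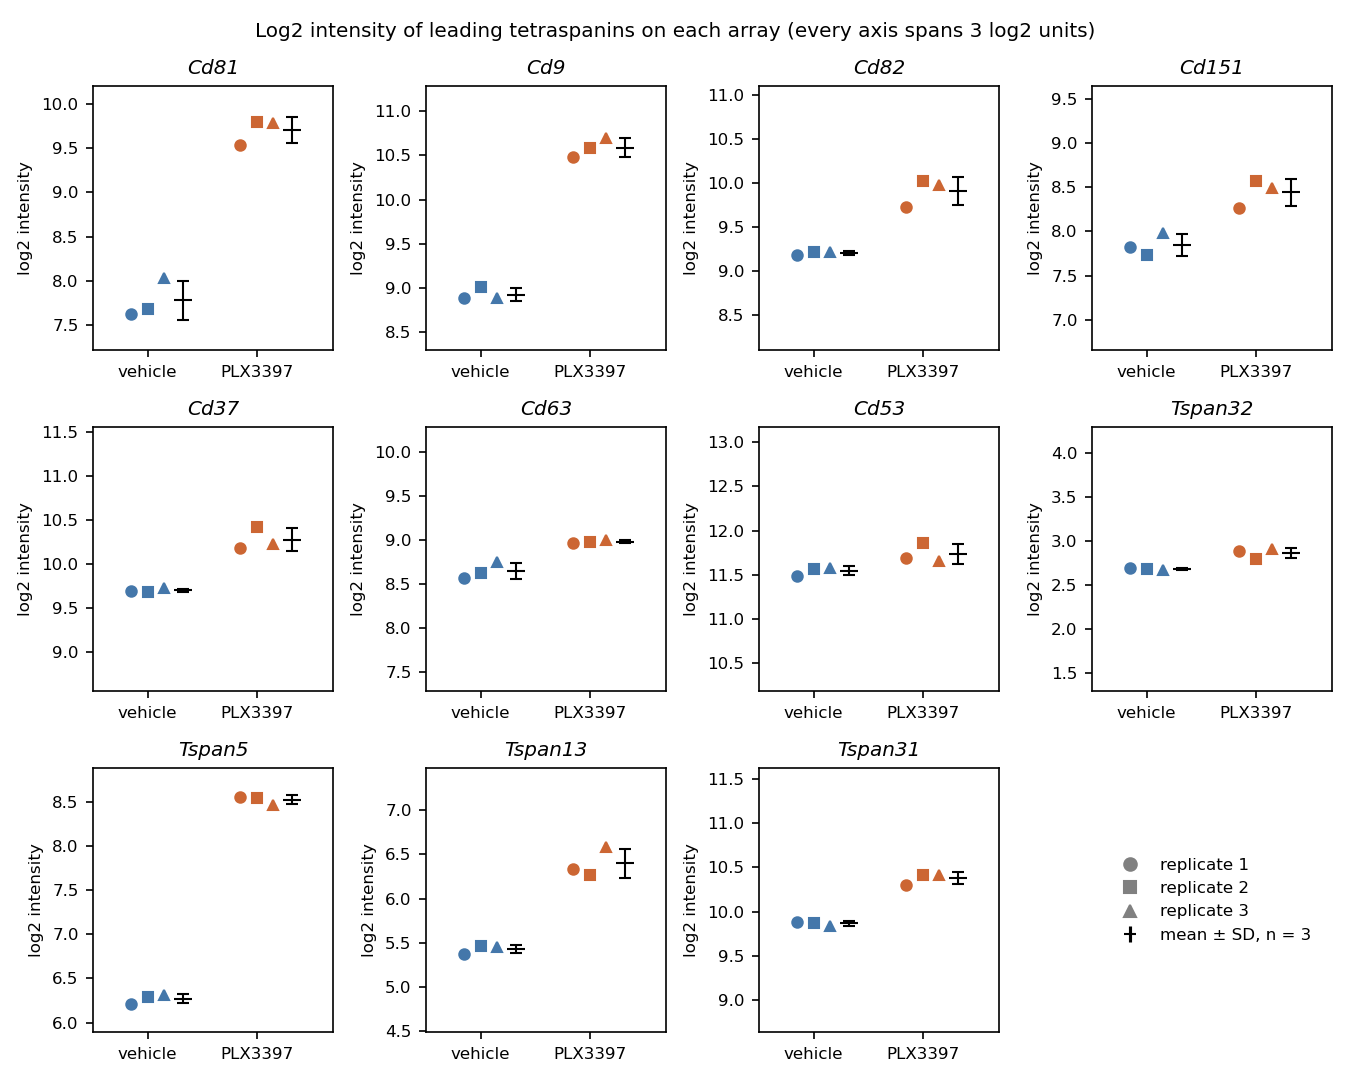
Log2 intensity on each of the 6 arrays for the 8 blood cell tetraspanins and the 3 other members that changed by at least 0.5 log2, with mean ± SD (n = 3 per group) and every axis spanning 3 log2 units. Tspan5, Cd81 and Cd9 show the widest gaps between groups, while Cd53 and Tspan32 differ by less than 0.2.

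Among the 6 TspanC8 genes, whose products escort ADAM10 to the cell surface, 4 rose, 0 fell and the median change was 0.27. The rises are 66.7% of the group, where 19.6% of all genes rose and 18.3% fell. With the test limited to genes above background in at least 1 group, as 5 of the 6 were, 28.4% rose and 26.6% fell. Tspan5 had the largest change of the family. It was at 6.21, 6.29 and 6.31 in vehicle and at 8.56, 8.55 and 8.47 with PLX3397. The spread within each group was 0.05 (SD, n = 3), and the change was 2.26 (SE 0.08, limma adjusted p = 2.09e-08). The other TspanC8 genes changed far less. Tspan14, at 7.50, 7.51 and 7.52 in vehicle and 7.66, 7.91 and 7.81 with PLX3397, rose by 0.28 (SE 0.09, limma adjusted p = 0.025). Tspan33, known from red cell precursors and B cells, rose by 0.26 (SE 0.08, limma adjusted p = 0.035) from 3.90, 3.85 and 3.78 to 4.21, 4.08 and 4.01. In both genes every treated array lay above every control. Tspan15 was below background on all vehicle arrays and above it on PLX3397 replicate 3 alone, where it measured 3.92. It passed the test (limma adjusted p = 0.033), and its treated mean was 1.10-fold the vehicle floor. That is no lower bound, as the other treated arrays were below background. These 3 calls lay close to the threshold. Leaving out any 1 array other than PLX3397 replicate 1 ended the call of Tspan14, with changes of 0.23 to 0.29 and limma adjusted p = 0.052 to 0.080. Leaving out any 1 array other than PLX3397 replicate 3 did so for Tspan33, with changes of 0.21 to 0.29 and limma adjusted p = 0.054 to 0.128. Tspan15 lost its call without any 1 vehicle array (changes of 0.29 to 0.40) and without PLX3397 replicate 3 (change 0.24). With centred arrays Tspan14, Tspan33 and Tspan15 all lost it (limma adjusted p = 0.198, 0.295 and 0.143), which left Tspan5 the only rise of the group. Quantile normalisation ended the calls of Tspan33 and Tspan15 (limma adjusted p = 0.168 and 0.0775), and the replicate block that of Tspan15 (limma adjusted p = 0.0589). Tspan17 was higher on every treated array (6.47, 6.35 and 6.48 against 6.64, 6.74 and 6.57), but its change of 0.22 passed only with quantile normalisation (limma adjusted p = 0.0098, and 0.069 as deposited). Tspan10, the pigment cell tetraspanin oculospanin, had overlapping groups and a change of 0.08, with a 95% interval from -0.10 to 0.26.

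The 12 remaining Tspan genes rose in 3 cases (25%, near the 19.6% of all genes) and fell in 1, and 6 of the 12 were above background on all arrays. Tspan13 was at 5.37, 5.46 and 5.46 in vehicle and at 6.34, 6.27 and 6.59 with PLX3397. Its change of 0.97 (SE 0.10, limma adjusted p = 2.40e-05) was the fourth in size among the tetraspanins. Tspan31, a gene first found amplified in sarcoma, was at 9.89, 9.87 and 9.84 in vehicle and at 10.30, 10.42 and 10.42 with PLX3397 (change 0.52, SE 0.08, limma adjusted p = 4.26e-04). The ends of Tspan31 and of the cell cycle kinase gene Cdk4 touch in the RefSeq annotation, and the change of Cdk4 was 0.13 (limma adjusted p = 0.207). Tspan9, a platelet tetraspanin at 4.31, 4.30 and 4.34 in vehicle and 4.64, 4.59 and 4.72 with PLX3397, rose by 0.33 (SE 0.08, limma adjusted p = 0.0063), a call it lost with centred arrays (limma adjusted p = 0.072).

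Tspan3 was the member that fell. It was at 9.17, 9.26 and 9.17 in vehicle and at 8.78, 9.0 and 8.95 with PLX3397, so that the groups were separate but close. The change was -0.29 (SE 0.09, limma adjusted p = 0.021), and it lost the call without vehicle replicate 2 (limma adjusted p = 0.073) or PLX3397 replicate 1 (limma adjusted p = 0.086). Tspan4, known from migrasomes, the vesicles that migrating cells leave behind, overlapped between groups (7.53, 7.17 and 7.54 against 7.16, 7.50 and 7.29), and its change of -0.09 had an interval from -0.37 to 0.18. Tspan11 overlapped too, with a change of 0.17 and an interval from -0.13 to 0.46.

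Tspan1, Tspan2, Tspan6 and Tspan8 were below background on all 6 arrays. Tspan6 was 0.29 lower (limma adjusted p = 0.127), and without PLX3397 replicate 3 it passed at 0.016. Tspan12, a co-receptor in Norrin signalling through Frizzled-4, and Tspan18, known from endothelial cells, were above background on PLX3397 replicate 3 alone, at 4.37 and 3.96, where the other treated arrays measured 3.31 and 3.45 for Tspan12 and 3.28 and 3.22 for Tspan18. Over the whole marker lists, this array was the highest of the 3 treated arrays for 6 of 7 fibroblast and 3 of 5 epithelial markers. It was so for 5 of 11 endothelial, 4 of 12 neutrophil, 2 of 6 B cell and 3 of 10 T and NK cell markers. The counts were 2 of 8 for dendritic cell, 2 of 9 for hepatocyte and 1 of 8 for mast cell and basophil markers. For macrophage and platelet markers they were 0 of 9 and 0 of 4. The same count over all genes was not made, so these counts have no share to be set beside. They also include markers below background on all arrays. The summed fibroblast level ranged from 364 to 578 in vehicle and from 406 to 808 with PLX3397, with Dcn the brightest marker in both groups. The part of any of these cells in the Tspan12 and Tspan18 values was not tested.

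The uroplakins Upk1a and Upk1b are tetraspanins of the plaques that line the bladder. Upk1a was at 4.26, 4.32 and 4.24 in vehicle and at 4.77, 4.69 and 4.73 with PLX3397, above the background level throughout (change 0.45, SE 0.08, limma adjusted p = 8.63e-04). Upk1b exceeded background on 1 vehicle and 2 treated arrays, with a change of 0.25 (limma adjusted p = 0.152). The binding partners Upk2, Upk3a and Upk3b did not pass (changes 0.24, 0.13 and 0.19).

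Several tetraspanin genes lie side by side in the mouse genome (RefSeq, GRCm38.p6), in 4 pairs. Cd151 rose by 0.60, with 1 gene between it and Tspan4, whose change was -0.09. The difference between these 2 changes was 0.69, and its two-sided exact permutation p = 0.1 is the smallest that 3 against 3 arrays allow (0.133 adjusted over the 4 pairs), so the test could not pass a threshold of 0.05. Tspan9 and Tspan11 changed by 0.33 and 0.17, a difference of 0.17 (exact permutation p = 0.4). Cd81 and Cd82, which rose by 1.93 and 0.70, lie next to Tspan32 and Tspan18. Tspan32 was below background on all 6 arrays and Tspan18 on 5 of them, so that no change of these neighbours was measured to set beside the rises.

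**Figure D3:**
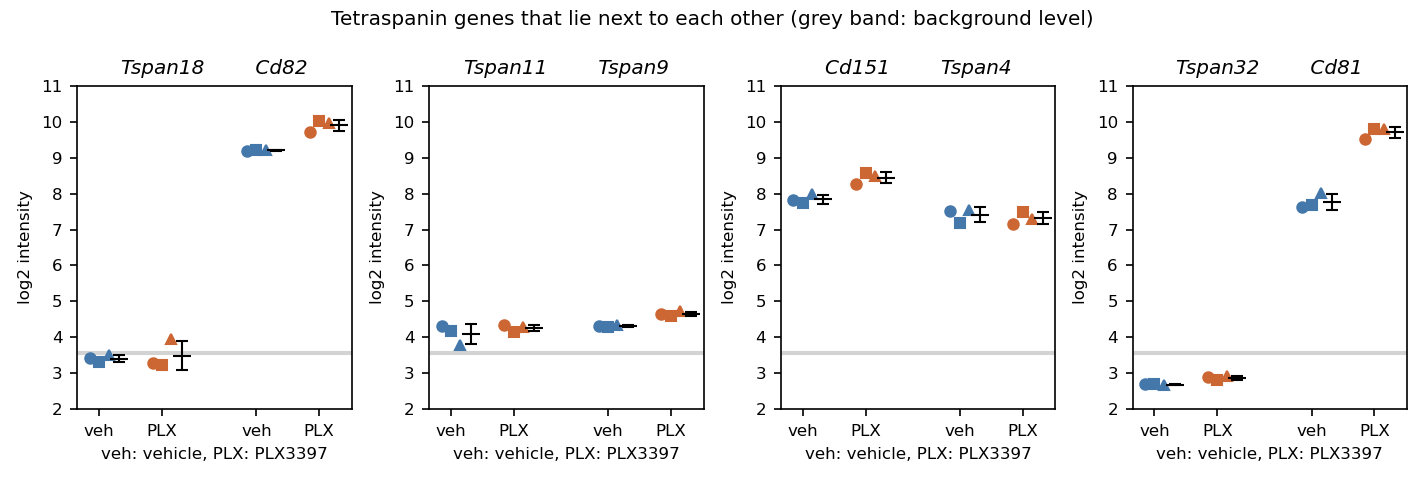
Log2 intensity on each array for the 4 pairs of neighbouring tetraspanin genes, with mean ± SD (n = 3 per group) and the background level as a grey band. Tspan18 and Tspan32 lie in or under the band, apart from Tspan18 on 1 treated array, beside neighbours that rose.

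Genes of proteins that associate with tetraspanins were followed in 5 lists drawn up with earlier results of these data known. Of 68 measured partners 27 rose and 13 fell, with a median change of 0.21. This is 39.7% higher and 19.1% lower, where over all genes 19.6% were higher and 18.3% lower. The share that fell is near that of all genes. With the test limited to genes above background on all 3 arrays of at least 1 group, 28 of 60 partners rose and 14 fell. Of all such genes 28.4% rose and 26.6% fell. Among ADAM10 and its substrates 6 of 13 rose (46.2%) and 2 fell (15.4%). Adam10 itself was at 8.14, 8.23 and 8.23 in vehicle and at 7.55, 7.53 and 7.59 with PLX3397. It fell by 0.64 (SE 0.08, limma adjusted p = 8.38e-05), the direction opposite to that of its escort Tspan5. Its substrates Cdh1 (E-cadherin), Cx3cl1 (fractalkine), Cxcl16 and Axl rose by 2.35, 1.19, 0.87 and 0.75. The substrates Notch1 and App rose by 0.61 and 0.27, while Cd44 fell by 0.62.

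Integrin partners rose in 6 of 12 cases (50%) and fell in 4 (33.3%), where 19.6% of all genes rose and 18.3% fell. All 12 were above background. With the test limited to genes above background in at least 1 group, 28.4% rose and 26.6% fell. The subunit Itgb1, shared by most integrins that tetraspanins bind, fell by 0.45 (SE 0.10, limma adjusted p = 0.0061). The largest fall was that of Itga4, whose product pairs with it and binds the adhesion receptor VCAM1, by 3.62 from 9.42 ± 0.06 to 5.80 ± 0.13 (SD, n = 3). Itgal, a subunit of LFA-1, fell by 0.74. Itgb3, the beta chain of the vitronectin and platelet integrins, rose by 3.10 from 4.76 ± 0.02 to 7.86 ± 0.35 (SD, n = 3), and Itgam and Itgb2, the chains of Mac-1, rose by 0.97 and 0.89. Laminin-binding Itga6 and Itga3, the usual partners of CD151, rose by 0.41 (4.30 to 4.71) and 0.38 (4.00 to 4.38), at low levels. Itga7 and Itgb4 of the same list had overlapping groups and did not pass, with changes of 0.08 and 0.27.

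Of 25 other membrane partners 9 rose (36%) and 1 fell (4%), where 19.6% of all genes rose and 18.3% fell. Igsf8 and Ptgfrn, the immunoglobulin-family proteins most closely bound to CD9 and CD81, did not pass, with changes of 0.05 and 0.20 (limma adjusted p = 0.706 and 0.092). The interferon-induced Ifitm1 rose by 3.74, the Dectin-1 gene Clec7a by 2.89, the growth factor gene Hbegf, whose precursor binds CD9, by 2.68 and Timp1, a ligand of CD63, by 1.31. Vcam1 fell by 1.17. In the cytoplasmic and vesicle list 5 of 16 rose (31.25%) and 6 fell (37.5%). Here 15 of the 16 were above background, and 28.4% of such genes rose and 26.6% fell in the test limited to them. The membrane-cytoskeleton linker Ezr rose by 1.08 and its relative Rdx fell by 0.64, the kinase genes Prkca and Prkcb changed by 0.55 and -0.95, and the proteoglycan Sdc4 rose by 0.82. Sdcbp (syntenin) and Pdcd6ip (ALIX), which load CD63 into exosomes, fell by 0.36 and 0.29.

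**Figure D4:**
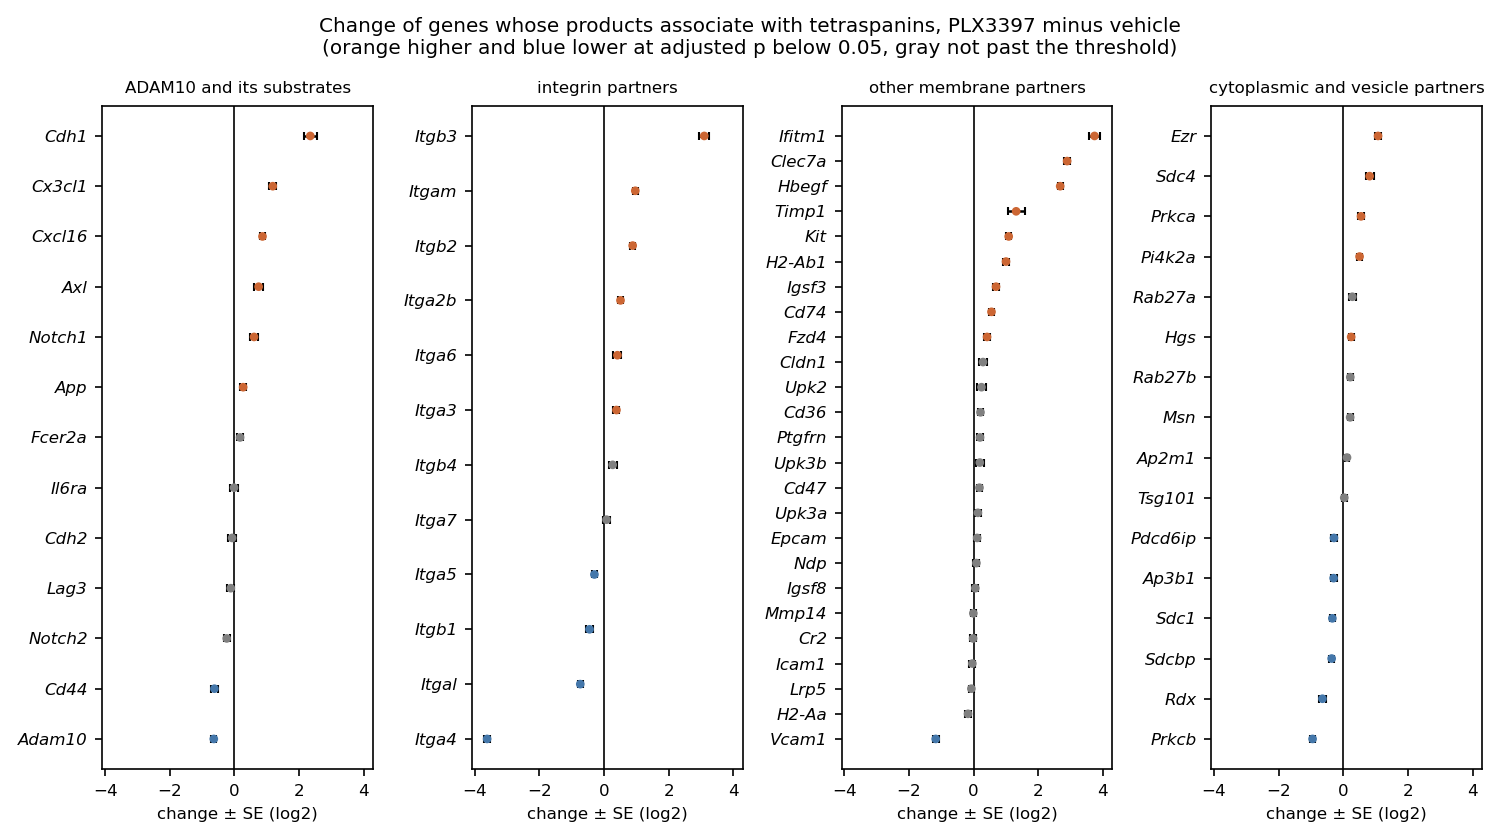
Change (PLX3397 minus vehicle, log2) with its SE for the measured partner genes in 4 lists, coloured by whether they passed the threshold (n = 3 per group). Itga4 at -3.62 and Ifitm1 at 3.74 are the extremes, and Adam10 lies at -0.64.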

How the data were processed

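Expression was measured on 6 Affymetrix Mouse Gene 1.0 ST arrays. The values that the authors deposited are on a log2 scale, 1 per probe set. Per the submitters' processing notes MAS5 was named, with no version or role. How probes were summarised, how arrays were normalised and the base of the log are not stated in what was available, so the base rests on the range of the values (1.57 to 13.5). Array medians were 4.21 to 4.35, and values were used as deposited. Of 28941 probe sets 21789 carried 1 symbol, and the brightest per gene stood for 19938 genes. Correlations of arrays across genes were 0.9961 to 0.9966 in the vehicle group, 0.9916 to 0.9963 in the PLX3397 group and 0.9512 to 0.9612 for pairs from different groups. The labels give no batch.

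The comparison used limma 3.58.1 under R 4.3.3, two-sided and with group as the only term, with Benjamini-Hochberg adjustment over all genes, a threshold of 0.05 and 95% intervals. The fit was tested on simulated data. For Tspan15, below background on every vehicle array, the fold sets the brighter mean against the floor of each dim array. The floor is background, or the measured value if that is larger. The number of arrays limits the precision. The members and all gene lists were chosen with earlier results of these data known. By rule, values per array are given for the 8 blood cell tetraspanins and for other members past the threshold with a change of at least 0.5 log2, and partners named are Adam10, Itgb1, Igsf8, Ptgfrn and the 5 largest changes past the threshold per list. Values of Tspan3, Tspan4, Tspan9, Tspan12, Tspan14, Tspan15, Tspan17, Tspan18, Tspan33 and Upk1a per array were added after their values were seen. So were the partners Notch1, App, Cd44, Itga3, Itga6, Itga7, Itgb4, Sdcbp, Pdcd6ip and Upk2 to Upk3b. Alternatives were quantile normalisation, centring, 2 filters on dim genes, the replicate block, a variance trend, array weights, the mean of probe sets, all probe sets and leaving out each array.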

Additional observations from a re-analysis of the deposited data

How the results depend on the processing

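Over 15 alternatives, 363 of 401 values of single tetraspanin genes kept their direction and side of the threshold. Of the 15 called members 9 kept the call throughout, and 6 (Cd63, Tspan3, Tspan9, Tspan14, Tspan15 and Tspan33) lost it at least once. With centred arrays 9 tetraspanins were higher and 2 lower, Tspan6 joining Tspan3. With the replicate block 13 were higher and 2 lower, Tspan6 passing and Tspan15 losing its call. Deviations of arrays with the same number correlated at -0.0133 to 0.0080, so no effect shared by equal numbers was seen. Such values cannot tell whether samples of the same number were matched. Leaving out 1 array gave 11 to 13 higher and 0 to 2 lower: 0 lower without vehicle replicate 2 or PLX3397 replicate 1, and 2 without PLX3397 replicate 3. Calls in either direction over all genes, and partner counts in each direction, stayed within 1.5 times the values given.

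The changes of sign were in genes that did not pass. With centred arrays these were Tspan10 (-0.0555), Tspan18 (-0.0527), Tspan2 (-0.0132), Igsf8 (-0.0830) and Csf1r (-0.0430). Quantile normalisation turned Tspan10 (-0.0336) and Tspan4 (0.0204). Leaving out 1 array gave -0.0876 to 0.0085 for Tspan1, -0.154 to 0.217 for Tspan18, -0.0266 to 0.208 for Tspan2, -0.0959 to 0.0259 for Tspan8 and -0.0175 to 0.123 for Igsf8, and the cause was not tested. The filters on dim genes left 18 and 19 members to test. Signal over background limits what can be said of the 9 members at background.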

Other observations

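The retinal tetraspanins Rom1 and Prph2, which the naming rule leaves out, had changes of 0.28 (limma adjusted p = 0.018) and 0.21 (limma adjusted p = 0.160). Rom1 lost its call under 5 of 15 alternatives: quantile normalisation (limma adjusted p = 0.105), centred arrays (0.191) and leaving out vehicle replicate 1 (0.058), vehicle replicate 3 (0.061) or PLX3397 replicate 2 (0.055). Both genes are known from photoreceptor discs. The gene Chid1, which overlaps Tspan4 in the annotation, changed by 0.23 (limma adjusted p = 0.059).

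Tetraspanin calls were spread over the range of levels. Of the 10 members with a mean level under 4, 2 rose, where 7.86% of genes at that level rose. Of the 5 at 4 to 6, 3 rose (28.5% of genes), of the 4 at 6 to 8, 2 rose (23.9%), of the 7 at 8 to 10, 6 rose and 1 fell (32% and 34%), and of the 2 above 10, 1 rose (39%).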
